A study of Mus musculus with 24 samples.

Results

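The 6 genes described here are Slc1a1, Gprc5a, Sox2, Hpgd, Pappa and Sostdc1. They were chosen by their large differences between shGAL and PLKO arrays in these same data, with no stated threshold, so those differences are given as descriptions and carry no test. They are 6 of 17097 genes with a probe set that names a single gene, and 11 of the 28898 such probe sets read them. All 6 were among the 11844 genes bright enough to be tested.

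The arrays measured total RNA of the mouse neural fraction of cells, isolated with magnetic beads from the stroma of human tumours. The tumours were orthotopic xenografts of SCC25, an established human oral squamous carcinoma line, in NSG mice, an immunodeficient strain that lacks mature T, B and natural killer cells but keeps myeloid cells. The tumours carried a non-targeting hairpin (PLKO), either of 2 hairpins against EGR2 (shEGR2_40.9 and shEGR2_38.9) or a single hairpin against GAL (shGAL), and the mice ate either control food or food rich in palmitic acid (PA, the PA-rich diet), which gave 8 groups. Each group had 3 arrays, which the series calls technical replicates. Whether these came from separate mice is not given in the sources used here, nor is the age of the mice, so p-values measure only the spread between these arrays. In bulk RNA of this kind, fewer cells of a type and less RNA per cell cannot be told apart.

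Galanin, the product of GAL, is a neuropeptide that signals through G protein-coupled receptors. EGR2 is a zinc finger transcription factor known for its role in the myelination program of Schwann cells. The 6 genes belong to different pathways. Slc1a1 encodes a sodium-coupled transporter that brings glutamate, aspartate and cysteine into cells, and Gprc5a encodes an orphan receptor of the cell membrane that retinoic acid induces. Sox2 is a transcription factor of neural and epithelial progenitors, and Hpgd encodes the dehydrogenase that inactivates prostaglandin E. Pappa encodes a secreted protease that frees insulin-like growth factors (IGFs) from a binding protein, and Sostdc1 encodes a secreted antagonist of bone morphogenetic proteins (BMPs) that also modulates Wnt signals.

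RefSeq promoters were matched for 3 of the 6 genes, Slc1a1, Sox2 and Hpgd, and all 3 are shown, the first of a gene that lay higher and the others of genes that lay lower with shGAL. Each line gives the 250 bases before the annotated start on the plus strand of GRCm38.p6, 5′ to 3′, at chr19:28834885-28835134 for Slc1a1, chr3:34649745-34649994 for Sox2 and chr8:56294302-56294551 for Hpgd. Capitals mark Sox core matches, the only searched letters found.
Slc1a1: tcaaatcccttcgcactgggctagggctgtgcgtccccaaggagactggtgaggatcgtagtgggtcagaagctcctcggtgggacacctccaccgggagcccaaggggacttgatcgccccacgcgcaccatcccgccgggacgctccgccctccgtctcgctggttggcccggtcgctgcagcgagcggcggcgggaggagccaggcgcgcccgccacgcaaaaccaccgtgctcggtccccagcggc
Sox2: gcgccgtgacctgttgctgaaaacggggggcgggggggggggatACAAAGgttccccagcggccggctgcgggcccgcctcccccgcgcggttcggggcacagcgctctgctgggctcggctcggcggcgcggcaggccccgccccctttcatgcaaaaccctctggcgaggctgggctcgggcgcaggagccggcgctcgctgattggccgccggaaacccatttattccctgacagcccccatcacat
Hpgd: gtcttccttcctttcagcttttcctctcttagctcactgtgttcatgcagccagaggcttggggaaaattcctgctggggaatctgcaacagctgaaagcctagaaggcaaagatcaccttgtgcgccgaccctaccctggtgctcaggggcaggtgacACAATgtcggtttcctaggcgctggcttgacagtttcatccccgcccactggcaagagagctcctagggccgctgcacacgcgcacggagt
The search covered both strands for the EGR sites GCGTGGGCG and GCGGGGGCG, the cAMP response element TGACGTCA and its core TGACG, which lies within it, the AP-1 site TGANTCA, and the Sox cores ACAAAG and ACAAT. The Sox2 window held ACAAAG, beginning 206 bases before the start, as did 16.5% of 32851 promoters of the same length. The Hpgd window held ACAAT, beginning 91 bases before the start, as did 27.7% of those promoters. These are matches of letters alone. The EGR letters were in 0.536% and 2.57% of all promoters, TGACGTCA in 1.55%, TGACG in 17.8% and TGANTCA in 6.75%, and none of these letters was in the 3 windows.

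Defining markers of the labelled fraction were partly dim. Of 12 neuronal markers on the array, 5 lay above the floor of 6.27 on the log2 scale in every group, and Snap25, Syt1, Uchl1, Elavl4 and the neurofilament genes did not. Of 11 Schwann cell and glial markers 7 lay above it, with S100b and Gfap below, whereas 13 of 14 keratinocyte markers did, at mean levels of 10.15 to 10.91 over the groups. Mouse Gal was flat, with group means of 6.99 to 7.19. Mouse Egr2 differed between shGAL and PLKO by -0.78 on the control diet (limma, adjusted p = 3.59e-05) and -0.75 on the PA-rich diet (limma, adjusted p = 5.41e-05). The hairpins belong to the human tumour and the arrays read the mouse stroma, so neither gene checks the knockdown. Of 7 tested Schwann cell and glial markers, 2 were called higher and 1 lower with shGAL against PLKO on both diets. Hair follicle and dermal papilla markers had 1 of 12 higher and 1 lower, keratinocyte markers 1 of 13 lower and endothelial markers 1 of 11 higher. Neuron, Merkel cell, fibroblast and macrophage markers had 0 (limma; 1 fibroblast marker lower at an unadjusted p under 0.05). Over all genes 3.53% were higher and 2.2% lower on both. A single array, shEGR2_38.9 on the control diet, replicate 3, stood apart, with a mean of 7.09 against 7.15 to 7.17 for the others and a mean correlation with its own group of 0.978 against 0.986 to 0.996. Its Gapdh 3′ minus 5′ control value, a measure of RNA quality, was 0.76 on the log2 scale against -0.12 to 0.08 for the others.

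Slc1a1 was dim in every group except those with shGAL. Its level, read by the brighter of its probe sets, was 5.46, 5.65 and 5.32 with PLKO on the control and 5.78, 5.70 and 5.60 on the PA-rich diet. The shGAL arrays read 7.79, 6.70 and 7.32 on the control and 8.20, 8.52 and 8.41 on the PA-rich diet. All 6 shGAL arrays lay above all 18 others, and the groups of the 2 diets with shGAL did not overlap. With shEGR2_40.9 the values were 6.14, 6.10 and 6.10 on the control and 5.49, 5.86 and 6.42 on the PA-rich diet. With shEGR2_38.9 they were 6.50, 6.27 and 5.60 on the control and 5.93, 6.06 and 6.24 on the PA-rich diet. In order of their means, each of the 6 groups without shGAL overlapped the next. Groups further apart in that order could still be parted. On the control diet every PLKO array (5.32 to 5.65) lay below every shEGR2_40.9 array (6.10 to 6.14), all of them dim. Only the shGAL groups reached the dim floor: 6 of 8 group means lay below it, and without the shGAL arrays the mean of the gene was 5.90, so it passed the filter through shGAL alone. With each dim array raised to the floor, the means of this probe set with shGAL and PLKO still differed. They lay 2.00-fold higher with shGAL on the control diet and 4.29-fold higher on the PA-rich diet. The measured differences, 1.79 ± 0.23 (SE) and 2.68 ± 0.23 on the log2 scale, have a dim level on the PLKO side. The second probe set was dim in all 8 groups and gave 0.43 and 0.46.

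Gprc5a, the retinoid-induced receptor, was bright everywhere and brightest with shGAL. Its single probe set read 10.01, 10.06 and 10.11 with PLKO on the control and 10.46, 10.48 and 10.57 on the PA-rich diet. With shGAL it read 11.57, 11.57 and 11.43 on the control and 11.71, 11.74 and 11.61 on the PA-rich diet. Every shGAL array lay above every other array. The shEGR2_40.9 arrays read 10.52, 10.65 and 10.69 on the control and 10.65, 10.68 and 10.68 on the PA-rich diet. Those of shEGR2_38.9 read 10.40, 10.14 and 10.07 on the control and 10.69, 10.86 and 10.90 on the PA-rich diet. In order of mean, shEGR2_38.9 on the control diet overlapped PLKO on that diet. PLKO on the PA-rich diet overlapped shEGR2_40.9 on the control diet, which in turn overlapped shEGR2_40.9 on the PA-rich diet. On the PA-rich diet every PLKO array lay below every shEGR2_40.9 array. The receptor lay 1.46 ± 0.08 (SE) above PLKO with shGAL on the control diet, 2.76-fold, and 1.18 ± 0.08 on the PA-rich diet, 2.27-fold.

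Sox2 took the opposite course and was lowest with shGAL. It has 1 probe set, which read 7.53, 7.54 and 7.38 with PLKO on the control and 7.01, 7.53 and 7.56 on the PA-rich diet. The shGAL arrays read 6.18, 5.98 and 6.28 on the control and 6.35, 6.03 and 6.38 on the PA-rich diet. Both shGAL group means lay below the dim floor, and the groups of both diets overlapped each other. With shEGR2_40.9 the factor read 6.80, 7.36 and 6.93 on the control and 7.55, 7.62 and 7.55 on the PA-rich diet. With shEGR2_38.9 it read 6.65, 6.70 and 6.60 on the control and 6.94, 6.88 and 7.0 on the PA-rich diet, all above every shGAL array and below every PLKO array. In order of mean, shEGR2_38.9 on the control diet overlapped neither neighbour, and the next 4 groups, up to PLKO on the control diet, overlapped one after another. The measured shGAL differences from PLKO were -1.33 ± 0.13 (SE) on the control and -1.11 ± 0.13 on the PA-rich diet. With values under the floor raised to it, the Sox2 means lay 2.31-fold lower with shGAL on the control and 2.05-fold lower on the PA-rich diet.

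Hpgd, which inactivates prostaglandins, was also lowest with shGAL. The PLKO arrays read 8.19, 8.32 and 8.59 on the control and 8.17, 8.35 and 8.07 on the PA-rich diet. With shGAL they read 6.95, 6.80 and 6.68 on the control and 7.17, 7.12 and 7.19 on the PA-rich diet. The shGAL groups of both diets lay wholly below those of PLKO. The shEGR2_40.9 arrays gave 6.93, 7.73 and 7.51 on the control and 7.95, 8.16 and 7.75 on the PA-rich diet. Those of shEGR2_38.9 gave 7.28, 7.14 and 7.09 on the control and 7.79, 7.81 and 7.65 on the PA-rich diet. In order of mean, every group above shGAL on the control diet overlapped the next up to PLKO on the control diet. The enzyme differed from PLKO with shGAL by -1.56 ± 0.14 (SE) on the control diet, 2.95-fold lower, and by -1.04 ± 0.14 on the PA-rich diet, 2.05-fold lower. A second, dimmer probe set gave -1.13 and -0.56.

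Pappa, the protease of the IGF axis, lay low with shGAL mainly on the control diet. The brightest of its 3 probe sets read 11.10, 11.18 and 11.18 with PLKO on the control and 10.75, 10.81 and 10.56 on the PA-rich diet. With shGAL it read 10.08, 9.86 and 9.90 on the control and 10.27, 10.30 and 10.20 on the PA-rich diet. The PLKO groups of the 2 diets did not overlap, nor did those of shGAL, and they lay in opposite orders. With shEGR2_40.9 the values were 10.38, 10.46 and 10.62 on the control and 10.85, 10.81 and 10.66 on the PA-rich diet. With shEGR2_38.9 they were 10.40, 10.14 and 10.43 on the control and 10.46, 10.23 and 10.45 on the PA-rich diet. In order of mean, the groups between these extremes, shGAL on the control diet and PLKO on the control diet, overlapped one after another. The difference of shGAL from PLKO was -1.21 ± 0.09 (SE) on the control diet, 2.31-fold lower, and -0.45 ± 0.09 on the PA-rich diet, 1.36-fold lower. Both other probe sets of Pappa gave larger differences on the control diet, -1.58 and -1.97, and like ones on the PA-rich diet, -0.43 and -0.44.

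Sostdc1, the BMP antagonist, did not bear out a large difference on both diets. Its brighter probe set read 9.42, 9.77 and 9.43 with PLKO on the control and 10.20, 10.19 and 10.25 on the PA-rich diet. The shGAL arrays read 9.37, 9.40 and 9.0 on the control and 8.94, 9.13 and 9.03 on the PA-rich diet. On the control diet the highest shGAL array lay just under the lowest PLKO array, and on the PA-rich diet a wide gap parted them. The shEGR2_40.9 arrays read 9.11, 9.27 and 9.21 on the control and 10.51, 10.42 and 10.44 on the PA-rich diet. Those of shEGR2_38.9 read 9.60, 9.41 and 9.91 on the control and 10.00, 10.08 and 10.14 on the PA-rich diet. In order of mean, both shGAL groups overlapped shEGR2_40.9 on the control diet, whereas the 3 highest groups, all on the PA-rich diet, did not overlap. The shGAL difference was -0.28 ± 0.11 (SE) on the control diet, 1.21-fold lower, a size that 18.8% of all genes reached, and -1.18 ± 0.11 on the PA-rich diet, 2.27-fold lower. The other probe set gave -0.70 and -1.19.

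**Figure D1:**
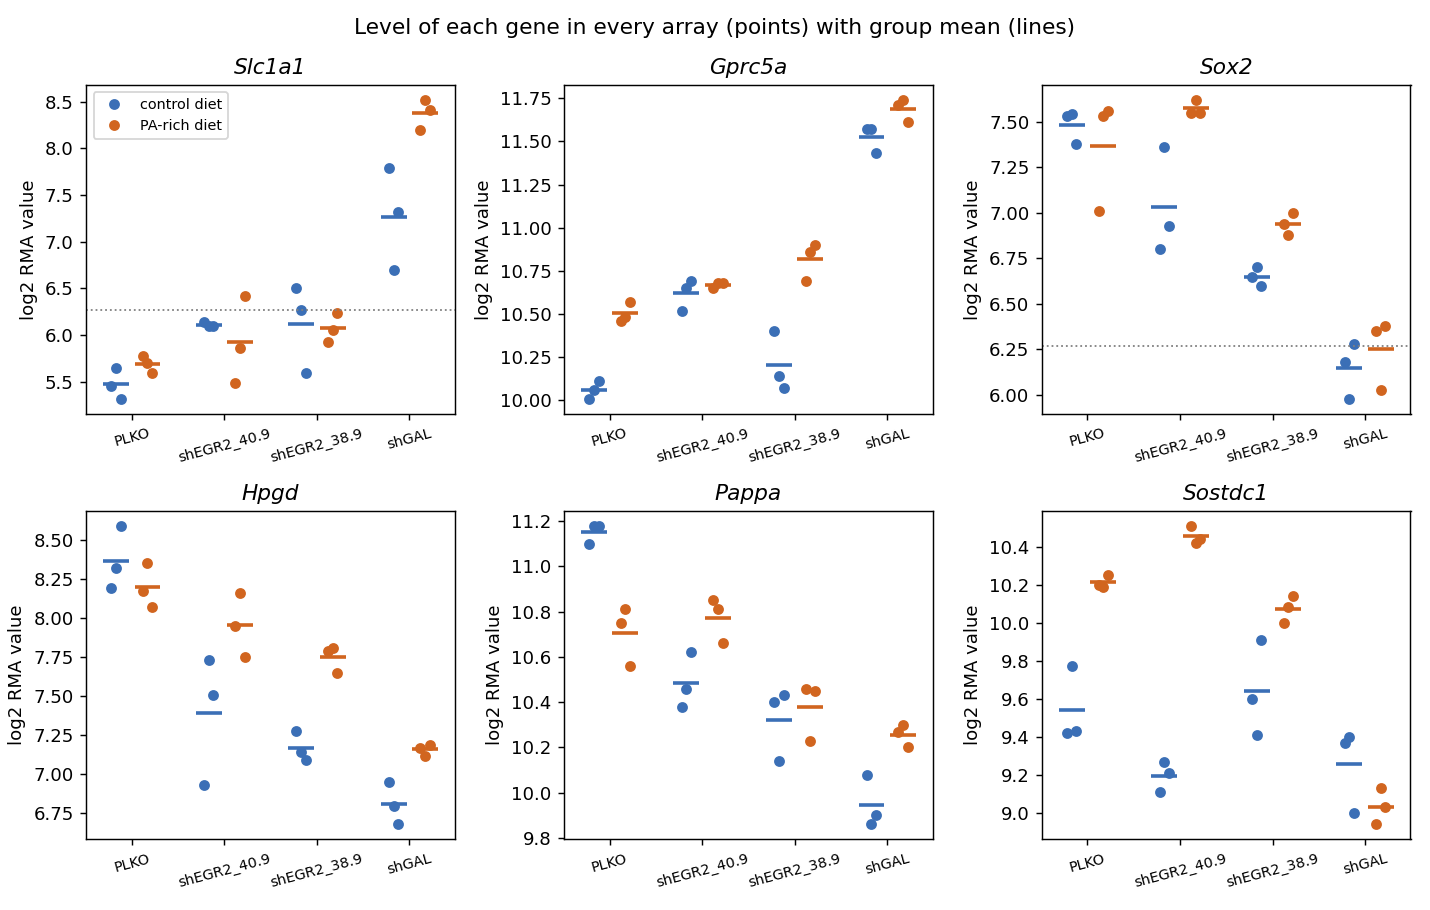
Level of each gene on the log2 RMA scale (y axis) in every array (points) with the group mean (short lines), by hairpin (x axis) and diet (colour); the dotted line in the Slc1a1 and Sox2 panels is the dim floor of 6.27. The shGAL arrays lie above all others for Slc1a1 and Gprc5a and below all others for Sox2, and for Sostdc1 only the shGAL arrays lack the higher level on the PA-rich diet.

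Over all genes, shGAL against PLKO called 7.15% of 11844 genes higher and 9.84% lower on the control diet, and 7.60% higher and 4.77% lower on the PA-rich diet (limma, adjusted p under 0.05). At least 1 log2 unit on both diets in the same direction was reached by 12 higher and 4 lower genes. Slc1a1 and Gprc5a are among the former and Sox2 and Hpgd among the latter. These shares are background to a choice already made on these contrasts. Within the only scan batch that held arrays of both hairpins, with 1 array a group, the shGAL differences were 2.00 and 2.80 for Slc1a1 on the control and PA-rich diets. They were 1.32 and 1.04 for Gprc5a and -1.09 and -1.18 for Sox2. For Hpgd they were -1.91 and -0.88, for Pappa -1.27 and -0.36, and for Sostdc1 -0.42 and -1.22.

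Whether diet modified the shGAL difference was tested as the difference of 2 diet effects, that with shGAL minus that with PLKO. It equals the shGAL difference from PLKO on the PA-rich diet minus that on the control diet, the differences the genes were chosen on, so its p-values are not independent of the choice. A modification was called for 2 of the 6, Sostdc1 and Pappa, in opposite directions, against 1.33% of all genes called. For Sostdc1 the PA-rich diet changed the shGAL difference by -0.90 ± 0.16 (SE; limma, adjusted p = 0.00448), so that the gap widened. In Pappa it changed by 0.76 ± 0.13 (limma, adjusted p = 0.00323), so that the gap narrowed. Leaving out any of the 24 arrays kept both calls, with adjusted p of at most 0.0200 for Sostdc1 and 0.0130 for Pappa. The other Sostdc1 probe set gave -0.49, at the threshold (limma, adjusted p = 0.05), and those of Pappa gave 1.15 and 1.53, both called. No modification was called for Slc1a1, at 0.89 (95% interval 0.22 to 1.55; limma, adjusted p = 0.189), or Hpgd, at 0.52 (0.10 to 0.95; adjusted p = 0.23). The PLKO side of the Slc1a1 value lay under the dim floor. Nor was a modification called for Gprc5a, at -0.28 (-0.52 to -0.05; adjusted p = 0.239), and Sox2, at 0.22 (-0.17 to 0.61; adjusted p = 0.616). The intervals of Slc1a1, Hpgd and Gprc5a, which are not adjusted over genes, do not hold 0.

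The diet effects themselves, PA-rich minus control, show where these differences lie, and with PLKO and shGAL they use the arrays that chose the genes. With PLKO 3 of the 6 genes were called, against 1.18% of all genes. Sostdc1 rose by 0.68 ± 0.11 (SE; limma, adjusted p = 0.0032), with 0.78, 0.42 and 0.83 in the 3 scan batches. Gprc5a rose by 0.45 ± 0.08 (limma, adjusted p = 0.00491), with 0.45, 0.42 and 0.47. Pappa fell by 0.45 ± 0.09 (limma, adjusted p = 0.014). Its call was lost without PLKO control diet replicate 2 (adjusted p = 0.0563) or 3 (0.0536), or PA-rich replicate 3 (0.0976). With only the arrays compared the Pappa call was lost too (limma, adjusted p = 0.0545). With shGAL only Slc1a1 was called, against 1.94% of all genes. The gene was chosen by its shGAL values and passed the dim filter through those arrays alone, so nothing is read from this call. Slc1a1 rose by 1.10 ± 0.23 (SE; limma, adjusted p = 0.0117), 2.15-fold, with 0.41, 1.82 and 1.09 in the scan batches. By size it ranked 5 among the diet effects with shGAL. The call was lost without shGAL control diet replicate 2 (0.82, adjusted p = 0.115) or PA-rich replicate 2 (1.03, 0.0542) or 3 (1.09, 0.0597). It was lost too with only the arrays compared (limma, adjusted p = 0.0849). The dim second probe set gave 0.14 (adjusted p = 0.55). Sostdc1, which diet raised in PLKO tumours, was at -0.23 with shGAL (95% interval -0.46 to 0.01; limma, adjusted p = 0.339).

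The diet effects in the shEGR2 groups compare arrays that did not choose the genes, with a spread estimated over all 24 arrays. Sostdc1, the BMP antagonist, rose on the PA-rich diet with both hairpins, by 1.26 ± 0.11 with shEGR2_40.9 (SE; limma, adjusted p = 3.84e-07) and 0.43 ± 0.11 with shEGR2_38.9 (adjusted p = 0.00875). Hpgd also rose with both, by 0.56 ± 0.14 (limma, adjusted p = 0.0145) and 0.58 ± 0.14 (adjusted p = 0.0056). Its second, dimmer probe set gave 0.30 (limma, adjusted p = 0.206) and 0.28 (adjusted p = 0.141), neither called, and with only the arrays compared the shEGR2_40.9 call was lost (adjusted p = 0.0974). Sox2 rose with shEGR2_40.9, by 0.54 ± 0.13 (limma, adjusted p = 0.0113), and was at 0.29 with shEGR2_38.9 (adjusted p = 0.129). Gprc5a rose with shEGR2_38.9, by 0.62 ± 0.08 (limma, adjusted p = 5e-06), and was at 0.05 with shEGR2_40.9 (adjusted p = 0.776). Thus 3 of 6 genes were called with each hairpin, all higher, against 8.95% of all genes with shEGR2_40.9 and 22.1% with shEGR2_38.9. Pappa, at 0.29 with shEGR2_40.9 (limma, adjusted p = 0.054), was called with scan batch as a block (adjusted p = 0.0475). Calls with shEGR2_40.9 were lost for Sox2 without control diet replicate 1 (0.43, adjusted p = 0.0811) or 3 (0.49, 0.0578), and for Hpgd without control diet replicate 1 (0.33, 0.113) or PA-rich replicate 2 (0.46, 0.0964). With shEGR2_38.9, Sostdc1 lost its call without control diet replicate 2 (0.32, adjusted p = 0.0569) or with only the arrays compared (0.43, 0.0701). Without the array that stood apart, the 3 effects of shEGR2_38.9 were 0.57 for Sostdc1, 0.54 for Hpgd and 0.55 for Gprc5a, all still called.

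**Figure D2:**
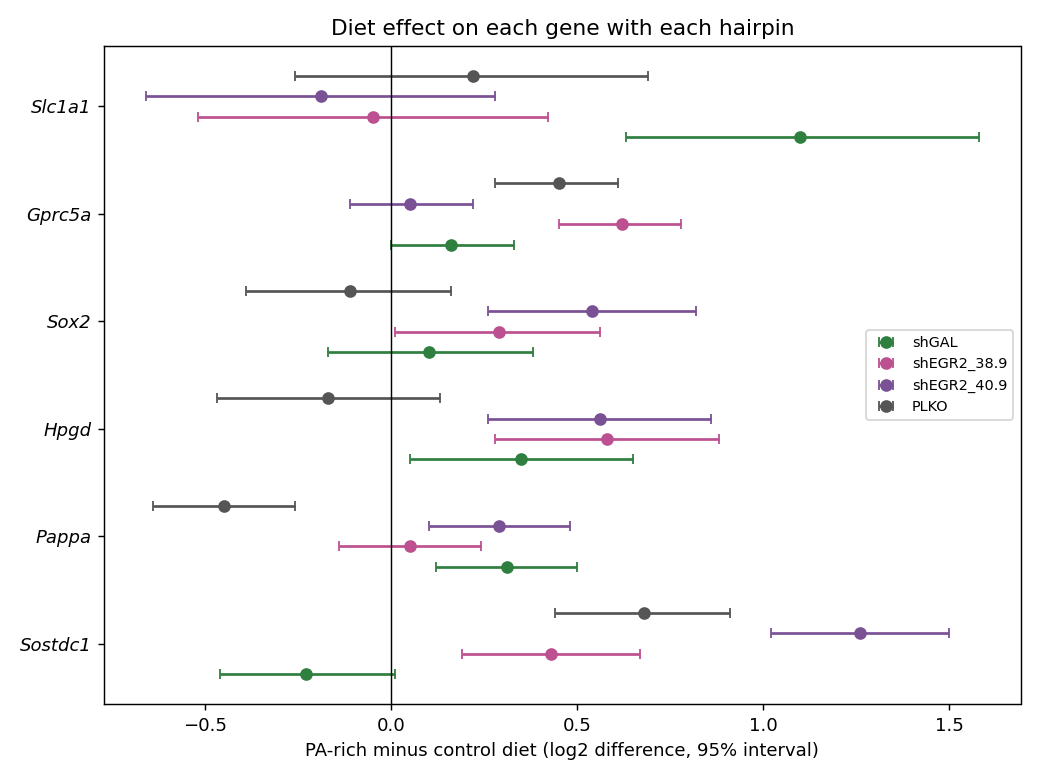
Diet effect on each gene (y axis), PA-rich minus control diet, as a log2 difference with its 95% interval (x axis), for each hairpin (colour). Sostdc1 is above 0 with all hairpins except shGAL, and Pappa is below 0 with PLKO alone. For Slc1a1 the effect with shGAL is 1.10. That gene was chosen by its shGAL values and was dim with every other hairpin, so no order of its effects is read.

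Compared with PLKO, the diet effect itself differed with the EGR2 hairpins for some members. The diet effect with shEGR2_40.9 minus that with PLKO was 0.73 ± 0.13 for Pappa (SE; limma, adjusted p = 0.00204), 0.59 ± 0.16 for Sostdc1 (adjusted p = 0.0436) and 0.73 ± 0.20 for Hpgd (adjusted p = 0.0441), 3 of 6 against 4.16% of all genes. The calls of Sostdc1 and Hpgd lay close to the threshold. Leaving out 13 of the 24 arrays in turn ended that of Sostdc1, with adjusted p up to 0.117, and 14 ended that of Hpgd, with adjusted p up to 0.127. Sox2, at 0.65 (limma, adjusted p = 0.0518), passed with scan batch as a block (adjusted p = 0.0467). Gprc5a was at -0.39 (limma, adjusted p = 0.0518). It passed with quantile normalization repeated (adjusted p = 0.032), the mean of a gene's probe sets (0.0323) or only the arrays compared (0.0175). With shEGR2_38.9 this difference was called for Pappa, at 0.50 ± 0.13 (SE; limma, adjusted p = 0.0119), and Hpgd, at 0.75 ± 0.20 (adjusted p = 0.0171), 2 of 6 against 13.4% of all genes. The Pappa diet effect itself was -0.45 with PLKO, 0.29 with shEGR2_40.9 and 0.05 with shEGR2_38.9, and of these only the fall with PLKO was called. The Hpgd call was lost without PLKO control diet replicate 3 (0.64, adjusted p = 0.0561). Pappa was therefore called against PLKO with each of the 3 other hairpins, but these comparisons share the PLKO arrays and are not separate results. Those arrays also entered the choice of the genes, so the p-values and counts with the EGR2 hairpins are not independent of it.

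The shEGR2 differences from PLKO ask whether the EGR2 hairpins share the shGAL pattern. They share the PLKO arrays with the contrasts that chose the genes, so the direction they have in common is not independent of that choice. On the control diet 4 of the 6 genes were called with shEGR2_40.9, against 12.1% of all genes, and 4 with shEGR2_38.9, against 30.4%, of which 1 is Slc1a1 between groups that were both dim. Hpgd fell by 0.98 ± 0.14 with shEGR2_40.9 (SE; limma, adjusted p = 6.56e-05) and by 1.20 ± 0.14 with shEGR2_38.9 (adjusted p = 1.49e-06), beside -1.56 with shGAL. Pappa fell by 0.66 ± 0.09 (limma, adjusted p = 3.14e-05) and 0.83 ± 0.09 (adjusted p = 4.95e-07), beside -1.21. Sox2 fell by 0.45 ± 0.13 (limma, adjusted p = 0.0299) and 0.83 ± 0.13 (adjusted p = 5.75e-05), beside -1.33. The enzyme, the protease and the transcription factor that lay low with shGAL were thus low with both EGR2 hairpins. The genes were chosen for large shGAL differences, so nothing is read from the smaller sizes with the EGR2 hairpins.

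The genes that lay high with shGAL were shared less evenly on the control diet. Gprc5a rose with shEGR2_40.9, by 0.56 ± 0.08 (SE; limma, adjusted p = 4.75e-05), and was at 0.14 with shEGR2_38.9 (95% interval -0.02 to 0.31; adjusted p = 0.184), beside 1.46 with shGAL. Slc1a1 was at 0.64 with shEGR2_40.9 (limma, adjusted p = 0.0707) and 0.65 ± 0.23 with shEGR2_38.9 (adjusted p = 0.035), beside 1.79. All group means behind both EGR2 values lay under the dim floor and the second probe set gave 0.02 and 0.07 (limma, adjusted p = 0.932 and 0.607), so no change of level is read from them. Sostdc1 was at -0.34 with shEGR2_40.9 (limma, adjusted p = 0.0543) and 0.10 with shEGR2_38.9 (adjusted p = 0.52). The second Sostdc1 probe set fell with shEGR2_40.9, by 0.70 (limma, adjusted p = 7.11e-06).

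Several of these control diet calls rest on single arrays or on the scan batch. With scan batch as a block Sox2 lost its call with shEGR2_40.9 (-0.37, adjusted p = 0.107), Slc1a1 lost its call with shEGR2_38.9 (0.50, 0.176), and Sostdc1 gained a call with shEGR2_40.9 (-0.46, 0.0205). The Sox2 call with shEGR2_40.9 was also lost without PLKO replicate 1 (-0.43, adjusted p = 0.0798) or 2 (-0.42, 0.0939), or shEGR2_40.9 replicate 1 (-0.34, 0.148) or 3 (-0.40, 0.115). The Slc1a1 call with shEGR2_38.9 was lost without PLKO replicate 1 (0.64, adjusted p = 0.0745) or 3 (0.57, 0.114), or shEGR2_38.9 replicate 1 (0.46, 0.148) or 2 (0.57, 0.0966). Without the shEGR2_38.9 array that stood apart it was 0.91 (adjusted p = 0.0054). With only the arrays compared, Sox2 with shEGR2_40.9 (limma, adjusted p = 0.0804) and Slc1a1 with shEGR2_38.9 (0.0785) lost their calls. Slc1a1 with shEGR2_40.9 gained a call (limma, adjusted p = 0.00373). Endothelial markers moved with the same groups: 10 of 11 were called higher with each EGR2 hairpin on the control diet, with a median difference of 1.18 with shEGR2_40.9 and 1.62 with shEGR2_38.9. Their mean level was 9.19 to 9.91 in these arrays against 7.88 to 8.51 in all other groups. Keratinocyte markers had 5 of 13 called lower with shEGR2_38.9 on the control diet, at mean levels of 10.15 to 10.36 against 10.49 to 10.91 elsewhere. Hair follicle and dermal papilla markers had 7 of 12 called lower with that hairpin, with a median of -0.31, at mean levels of 6.77 to 7.06 against 7.11 to 7.41 elsewhere. Macrophage markers had 3 of 4 called higher with each EGR2 hairpin on the control diet, with medians of 0.55 and 0.53, at mean levels of 6.44 to 6.65 against 6.12 to 6.28 elsewhere. Fibroblast markers had 1 of 4 called higher with each, and 1 of 4 called lower with shEGR2_38.9, with medians of 1.39 and 1.15. Over all 11844 genes on the control diet, shEGR2_40.9 called 851 higher and 585 lower. The shEGR2_38.9 hairpin called 1331 higher and 2264 lower. The part of the cell type markers in the results for the 6 genes was not tested.

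On the PA-rich diet 0 of the 6 genes were called with either EGR2 hairpin (limma; at an unadjusted p under 0.05, 2 with shEGR2_40.9 and 4 with shEGR2_38.9), against 4.02% of all genes with shEGR2_40.9 and 0.625% with shEGR2_38.9. The sizes were small with shEGR2_40.9, from -0.25 (95% interval -0.54 to 0.05) for Hpgd to 0.24 (0.00 to 0.48) for Sostdc1. They were larger with shEGR2_38.9, at -0.45 (95% interval -0.75 to -0.15) for Hpgd, -0.43 (-0.71 to -0.15) for Sox2, -0.33 (-0.52 to -0.14) for Pappa and 0.31 (0.15 to 0.48) for Gprc5a. These 4 intervals do not hold 0, and the adjusted p over all genes (limma) lay between 0.0798 and 0.216. Sox2 was called without PLKO replicate 1 (-0.61, adjusted p = 0.0373), and Gprc5a without shEGR2_38.9 control diet replicate 1 (adjusted p = 0.0353) or 3 (0.0311). Endothelial markers had 0 of 11 called with either hairpin on this diet (limma; 2 and 5 at an unadjusted p under 0.05).

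**Figure D3:**
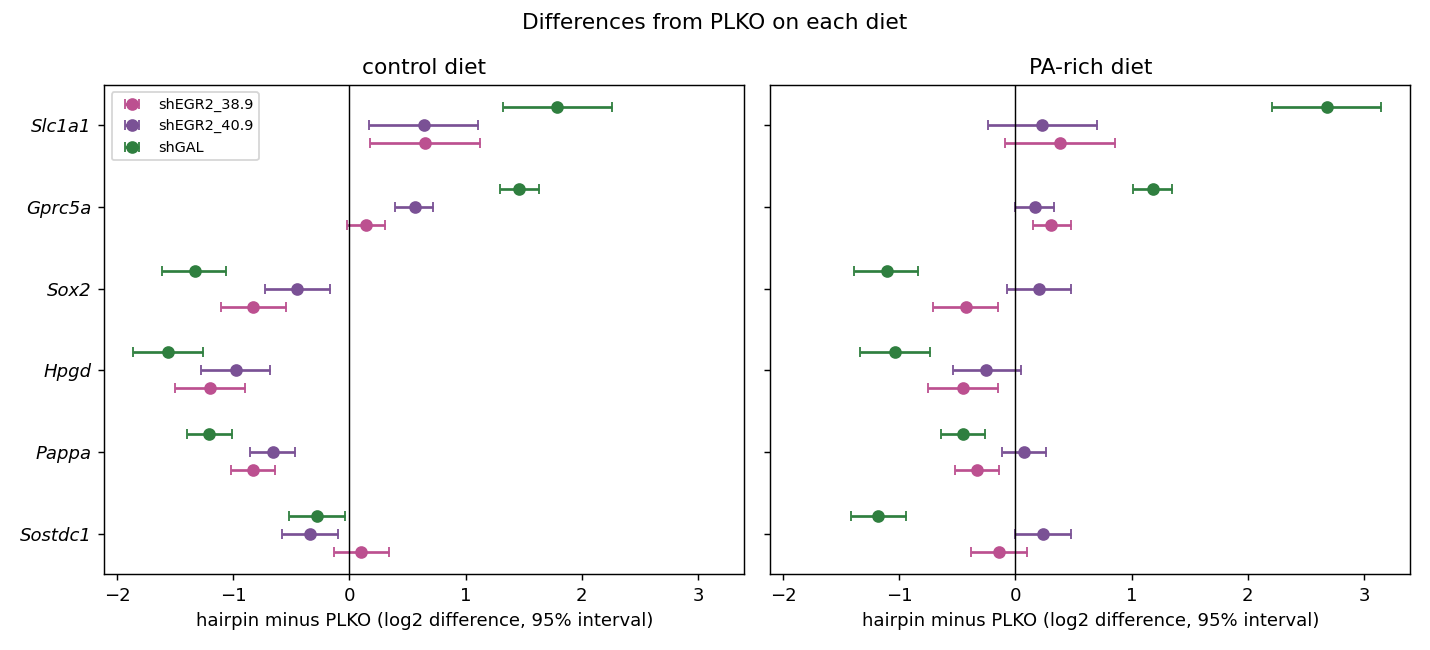
Difference of each hairpin (colour) from PLKO for each gene (y axis), as a log2 difference with its 95% interval (x axis), on the control diet (left) and the PA-rich diet (right). On the control diet Hpgd, Pappa and Sox2 lie below 0 with all 3 hairpins. On the PA-rich diet the shGAL differences lie further from 0 than those of the EGR2 hairpins for every gene. The choice of genes by their shGAL differences favours this order of size.

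Set beside the mean of both EGR2 hairpins, the shGAL values are given as a description with no test, since the shGAL arrays chose the genes. Over all genes this comparison called 29.2% on the control and 16.4% on the PA-rich diet (limma), from which nothing is read about the 6. Gprc5a lay 1.11 ± 0.07 (SE) above the EGR2 mean on the control and 0.94 ± 0.07 on the PA-rich diet. Slc1a1 lay 1.15 and 2.38 above it, where the EGR2 groups were dim. Sox2, itself dim with shGAL, was at -0.69 and -1.0 on the control and PA-rich diets. For Hpgd the differences were -0.47 ± 0.13 and -0.69 ± 0.13, and for Pappa -0.46 ± 0.08 and -0.32 ± 0.08. Sostdc1 was at -0.16 on the control diet (95% interval -0.37 to 0.05), with -0.26 from its other probe set, and at -1.23 ± 0.10 on the PA-rich diet, with -1.15 from the other.

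Genes related to each member were taken from lists by role, none of which holds a member. Over all genes, shGAL against PLKO called 3.53% higher on both diets and 2.2% lower on both, which is the background to each count on both diets given for these lists. Among 11 tested genes of glutamate and cysteine handling, shGAL against PLKO called 2 higher on the control and 1 lower on the PA-rich diet, with 0 on both (limma; 1 lower on both at an unadjusted p under 0.05). Gclc, the catalytic subunit of glutamate-cysteine ligase, rose by 0.41 on the control diet (limma, adjusted p = 0.000328), and its modifier Gclm fell by 0.47 on the PA-rich diet (adjusted p = 0.000531). The change between diets was called for Gclc (-0.53; limma, adjusted p = 0.00626) and not for Gclm (-0.26; adjusted p = 0.318). On the control diet the mean of Gclc was 8.64 with PLKO, 9.04 with shGAL, 9.20 with shEGR2_40.9 and 9.02 with shEGR2_38.9. The list's median difference was 0.06 on the control and -0.05 on the PA-rich diet, against -0.01 and -0.04 over all genes. Of 19 genes of the Gprc5 family and retinoid signalling, 1 was higher and 2 were lower on both diets. Crabp1, a retinoic acid binding protein, fell by 0.67 and 0.94 on the control and PA-rich diets (limma, adjusted p = 0.000772 and 1.74e-05), and the receptor Rxra by 0.39 and 0.43 (adjusted p = 0.015 and 0.0102). Cyp26b1, which degrades retinoic acid, rose by 0.32 and 0.30 (limma, adjusted p = 0.0232 and 0.0431). The list medians were 0.02 and -0.03.

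Sox factors and neural progenitor genes had 1 of 24 higher and 3 of 24 lower on both diets. Sox21 fell by 0.75 and 0.67 (limma, adjusted p = 0.000407 and 0.00131) and Sox9, a factor of glial and epithelial progenitors, rose by 0.83 and 0.57 (adjusted p = 0.000398 and 0.0102). Sox15 fell by 0.38 and 0.36 (limma, adjusted p = 0.0173 and 0.0314), and Jun by 0.21 and 0.27 (adjusted p = 0.0485 and 0.0135). Medians were -0.01 and -0.09, near those of all genes. Around Hpgd, 3 of 21 genes of prostaglandin synthesis, transport and receptors were higher and 1 was lower on both diets. The synthases Ptges and Hpgds rose, Ptges by 0.54 and 0.31 (limma, adjusted p = 4.96e-05 and 0.0081) and Hpgds by 0.44 and 0.47 (adjusted p = 0.00849 and 0.00694). So did Ptger1, a receptor for prostaglandin E, by 0.57 and 0.33 (limma, adjusted p = 0.000195 and 0.0212). Ptgr2, a prostaglandin reductase, fell by 0.37 and 0.45 (limma, adjusted p = 0.00849 and 0.00217), beside list medians of 0.00 and 0.01.

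In the IGF axis of Pappa, 1 of 13 genes was higher and 0 were lower on both diets (limma; 2 and 0 at an unadjusted p under 0.05). The receptor Igf1r rose by 0.31 and 0.44 (limma, adjusted p = 0.00851 and 0.000617), with list medians of 0.00 and -0.02. Igfbp4, the binding protein that the protease cleaves, was chosen for that role after its values were seen. It fell by 0.62 on the control diet (limma, adjusted p = 0.00247) and was at -0.08 on the PA-rich diet (adjusted p = 0.75), a change between diets of 0.54 that was not called (adjusted p = 0.17). BMP and Wnt signals and antagonists, the list of Sostdc1, had 0 of 31 higher and 5 lower on both diets (limma; the same numbers at an unadjusted p under 0.05). The Wnt antagonist Sfrp1 fell by 0.73 and 0.40 (limma, adjusted p = 0.000253 and 0.0312) and Id1, a BMP target, by 0.40 and 0.57 (adjusted p = 0.00747 and 0.000424). Lef1, a nuclear factor of the Wnt pathway, fell by 0.40 and 0.52 (limma, adjusted p = 0.0432 and 0.0119), and Dkk3 by 0.46 and 0.38 (adjusted p = 0.0024 and 0.0124). The fifth, Id3, named after its values were seen, fell by 0.44 and 0.40 (limma, adjusted p = 0.00998 and 0.0241). List medians were 0.00 and -0.12.

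Among 7 tested galanin receptors and related peptides, Calcb, which encodes a calcitonin gene-related peptide, was called on both diets. It rose by 0.74 ± 0.13 on the control diet (SE; limma, adjusted p = 0.000527) and 1.79 ± 0.13 on the PA-rich diet (adjusted p = 7.3e-09). The change between the diets, 1.05, was called (limma, adjusted p = 0.00433). Like Slc1a1, Calcb had its highest group mean with shGAL on the PA-rich diet, at 9.44, against 7.13 to 8.53 in the other groups. The list medians of 0.04 and -0.09 lay near those of all genes. The receptors Galr1 and Galr2, named for their role after their values were seen, had group means of 5.73 to 5.91, below the dim floor.

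**Figure D4:**
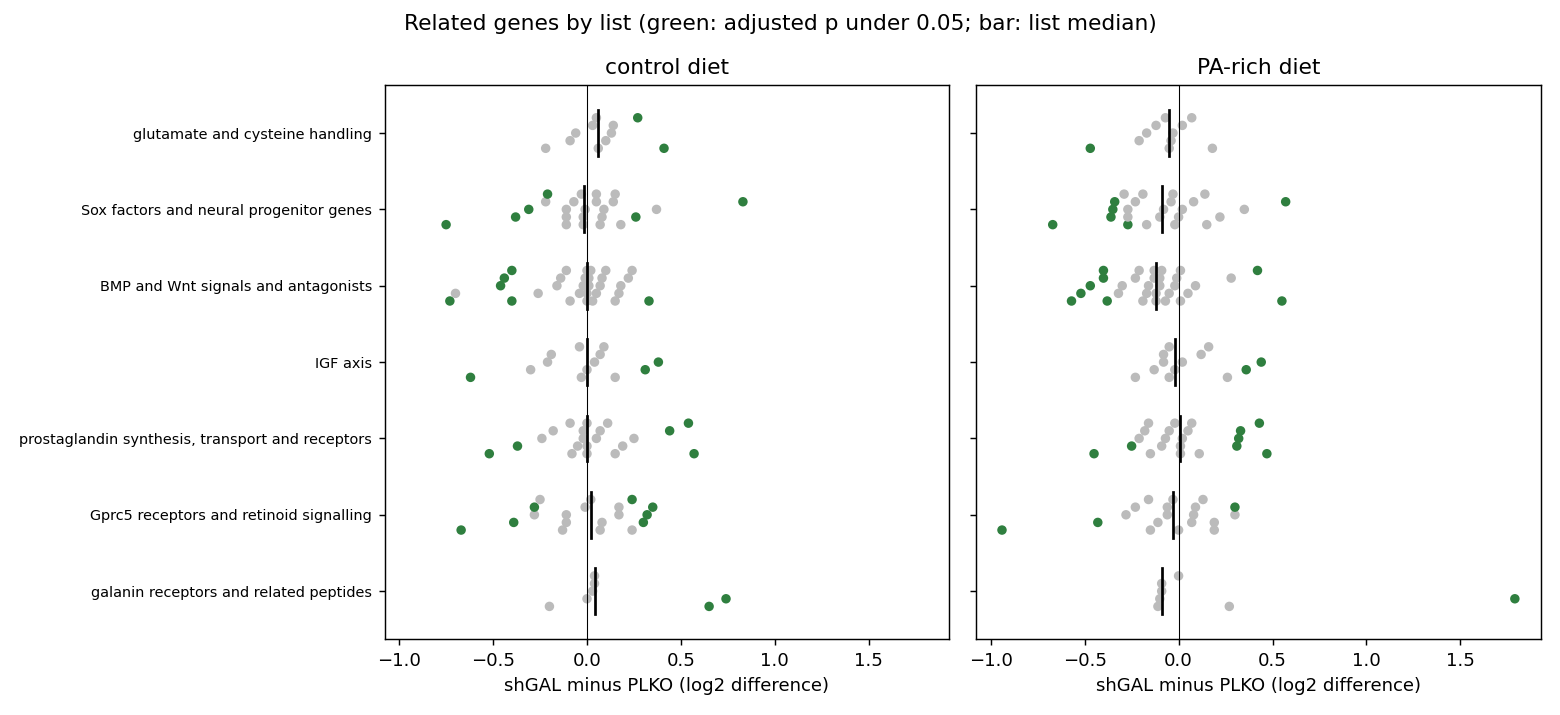
Difference between shGAL and PLKO on the log2 scale (x axis) for each tested gene of 7 lists (y axis), on the control diet (left) and PA-rich diet (right); green points have an adjusted p under 0.05 (limma) and the bar is the list median. List medians lie between -0.12 and 0.06, and the point furthest to the right on the PA-rich diet is Calcb, at 1.79.

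The genes whose levels ran most like those of each member over the 24 arrays are given as a description. All points share the same arrays and 8 groups, so a common shift with shGAL gives a high Pearson correlation. Slc1a1 was most like Kif13b (r = 0.918), Atp6v1b2 (0.915) and Pard6b (0.905), of which Pard6b lay 1.48 and 1.58 higher with shGAL than with PLKO on the control and PA-rich diets. Gprc5a was most like Ippk (0.960), Il1rn (0.955), which encodes the interleukin-1 receptor antagonist, and Cebpa (0.929), a transcription factor. Sox2 ran with 1600014C10Rik (0.919), Ssna1 (0.908) and Dnajc9 (0.906), and Hpgd with Atpaf1 (0.922), Rps6ka5 (0.908) and Mitd1 (0.899). Pappa was most like Egfl6 (0.881), which with shGAL lay 1.53 lower than with PLKO on the control and 0.56 lower on the PA-rich diet, then L3hypdh and Acadm (0.856 each). Sostdc1 had the weakest likeness, to Ahcy (0.861) and to Tk1 (0.843) and Cdca3 (0.832), both genes of dividing cells.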

How the data were processed

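The deposited values are on the log2 scale and were made by the authors with RMA in affy, with no version given, per the submitters' processing notes. They ran from 3.91 to 13.6, with array medians of 6.71 to 6.81. They hold no count depth, so the number of arrays limits the precision. The members and the gene lists were chosen with earlier results of these data known.

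Of 45141 probe sets, 28898 named 1 gene, 551 several and 15692 none. A gene was read by its brightest probe set over the 24 arrays, and dim genes were left out, below 6.27 (percentile 40 of the probe sets). Tests used limma 3.58.1 under R 4.3.3 (lmFit and eBayes, two-sided) in 1 model of 8 group means over 24 arrays, with 16 residual degrees of freedom, for 15 comparisons. P-values were adjusted by Benjamini and Hochberg over 11844 genes within each comparison, threshold 0.05. Those of the other probe sets of the members came from a separate fit over all 28898 probe sets naming 1 gene. That fit had no dim filter and its own adjustment. The script was tested on simulated data. Binding of human tumour RNA to mouse probe sets was not tested.

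Named beside the 6 genes, by rule, are up to 4 genes per list called for shGAL on both diets in the same direction, largest first (if none, up to 2 called on a single diet), the 3 best correlated with each member, and Egr2 and Gal.

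Within a hairpin, the labels give arrays of both diets with the same replicate number the same scan batch, which pairs them. Residuals of same-numbered arrays correlated at -0.03 to 0.24 in 12 pairs, 7 of them above 0.1. With scan batch as a block the residual degrees of freedom were 11, and Slc1a1 with shEGR2_38.9 against PLKO on the control diet went from 0.65 to 0.50 (adjusted p = 0.176). Alternatives were this block, no dim filter, quantile normalization repeated, only the arrays compared, the mean of a gene's probe sets, each array left out and each other probe set.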

Additional observations from a re-analysis of the deposited data

Results flagged for a closer look

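In 7 results the diet effect on a gene differed between a hairpin and PLKO by the test of the difference itself. With shGAL these were Sostdc1 (-0.90; limma, adjusted p = 0.00448) and Pappa (0.76; adjusted p = 0.00323). The shGAL arrays and differences had chosen the genes, so these p-values are not independent of that choice. With shEGR2_40.9 they were Pappa (0.73; limma, adjusted p = 0.00204), Sostdc1 (0.59; adjusted p = 0.0436) and Hpgd (0.73; adjusted p = 0.0441). With shEGR2_38.9 they were Pappa (0.50; limma, adjusted p = 0.0119) and Hpgd (0.75; adjusted p = 0.0171). All 7 results use the PLKO arrays, which also entered the choice of the genes, so those with the EGR2 hairpins are not independent of it either. Sostdc1 thus differed from PLKO in opposite directions with shGAL and shEGR2_40.9, and the difference between those hairpins was not tested.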

How the results depend on the processing

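Of 78 tested results for the 6 genes, 76 kept their direction and call with no dim filter, 74 with quantile normalization repeated and 67 with only the arrays compared. With scan batch as a block 72 did: beside the calls given above it changed no other, Pappa with shEGR2_40.9 against PLKO on the PA-rich diet was -0.01, and 24 in place of 74 genes were called with shEGR2_38.9 against PLKO on the PA-rich diet. With the mean of a gene's probe sets Slc1a1 was too dim to be tested and 59 of 65 held.

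With only the arrays compared, genes called for the diet effect numbered 70 with PLKO (140 in the main analysis), 1295 with shEGR2_38.9 (2623) and 47 with shGAL (230, with 0 of 6 members). The difference of the diet effect from PLKO called 762 with shEGR2_40.9 (493) and 105 with shGAL (158). Against PLKO on the control diet 950 were called with shEGR2_40.9 (1436), 1470 with shEGR2_38.9 (3595) and 1202 with shGAL (2013); on the PA-rich diet 1044 with shEGR2_40.9 (476) and 189 with shEGR2_38.9 (74), each with 1 member. Against the EGR2 mean shGAL called 1710 (3464) and 3279 (1947). The mean of probe sets gave 384 genes for the diet effect with shGAL. For the difference of the diet effect with shEGR2_40.9, members called were 1 with no dim filter and 5 with quantile normalization repeated or the mean of probe sets. The cause was not tested.

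Values that changed sign were all uncalled. Other probe sets of Slc1a1 gave 0.03 and 0.08 for the diet effect with shEGR2_40.9 and shEGR2_38.9, and -0.05 for shEGR2_40.9 against PLKO on the PA-rich diet. Sostdc1 with shEGR2_38.9 against PLKO on the control diet was -0.04 with the mean of probe sets and -0.19 with the other one. Pappa's diet effect with shEGR2_38.9 was -0.01 with quantile normalization repeated.

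Leaving out each array in turn moved the genes called for the diet effect to 56 to 269 with PLKO, 689 to 1534 with shEGR2_40.9 (1 to 4 members) and 59 to 528 with shGAL (0 to 2 members). The difference of the diet effect ranged over 282 to 854 with shEGR2_40.9 (1 to 5 members), 1 to 2 members with shEGR2_38.9, and 82 to 343 with shGAL. Against PLKO it ranged over 943 to 2082 with shEGR2_40.9 on the control diet, 232 to 789 on the PA-rich diet, and 13 to 134 with shEGR2_38.9 on the PA-rich diet (0 to 1 members). With shGAL on the PA-rich diet the ranges were 968 to 2097 against PLKO and 1292 to 2608 against the EGR2 mean. Sign changes occurred in the diet effect of Sox2 with PLKO (-0.21 to 0.06), of Slc1a1 with shEGR2_40.9 (-0.44 to 0.02) and shEGR2_38.9 (-0.31 to 0.14), and of Pappa with shEGR2_38.9 (-0.04 to 0.13). They also occurred against PLKO for Slc1a1 (-0.02 to 0.45) and Pappa (-0.01 to 0.12) with shEGR2_40.9 on the PA-rich diet and Sostdc1 with shEGR2_38.9 on the control diet (-0.03 to 0.22).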
